A study of Mus musculus with 4 samples.

Results

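The genes for the proteins of the mitochondrial ribosome were followed through Cnot1 knockdown in mouse embryonic stem cells (ESCs). They were taken by symbol, as every gene listed as Mrpl or Mrps with a number and at most a letter from a to d after it, which gave 78 of the 50559 genes in the count table. All 78 had enough counts to be tested, with 322 to 5862 counts per library. The mitochondrial ribosome, or mitoribosome, sits in the mitochondrial matrix and makes the few membrane proteins of the respiratory chain that mitochondrial DNA still encodes. Its ribosomal RNAs come from mitochondrial DNA, whereas its proteins are encoded in the nucleus, made by cytosolic ribosomes and imported. Mammalian mitoribosomes have lost much of the bacterial ribosomal RNA and have gained many proteins that bacteria lack.

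The cells were of the E14 line and received either an siRNA to Cnot1 (siCnot1) or a non-targeting siRNA (siNT), and RNA-seq covered 2 independent replicates of each, 4 libraries in all. CNOT1 holds together CCR4-NOT, the main enzyme complex that shortens mRNA poly(A) tails, and the study asked how the transcriptome responds to its loss. Both groups received 150 nM siRNA, were collected after 48 h, and grew on gelatin with LIF and serum replacement. By the study's methods the ESCs carry a tdTomato reporter under a MERVL promoter. The methods describe more than a single Cnot1 siRNA, and the labels do not say which was used for these libraries, so an effect of that siRNA beyond Cnot1 cannot be told apart from the effect of the knockdown.

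Library totals were 32135824 to 32557440 counts on genes. Levels are given as normalized CPM, the counts scaled to library size by the trimmed mean of M-values (TMM). Cnot1 itself was at 949 ± 51.7 normalized CPM (SD, n = 2) in control cells and at 188 ± 5.14 (SD, n = 2) after knockdown, or 19.8% of control. Pluripotency markers summed to 7680 and 7410 CPM in siNT and to 6670 and 6920 CPM in siCnot1. Of the 10 genes, 8 were lower at an adjusted p under 0.05, where 14.7% of all genes tested were lower and 15.0% higher. Markers of other cell types were low, at 11.9 to 21.7 CPM for 8 fibroblast genes (Col3a1 and Dcn at 0 in every library), 12.2 to 23.9 CPM for 7 primitive endoderm genes and 72.7 to 96.7 CPM for 8 trophectoderm genes. Both siCnot1 libraries were above both siNT libraries for the fibroblast and primitive endoderm sums and below them for the trophectoderm and pluripotency sums. Pdgfra is on both the fibroblast and the primitive endoderm list, so these 2 sums are not separate. The log2 fold change was above 0 in all 4 fibroblast genes tested, and 2 were higher at the same threshold. It was above 0 in 4 and below 0 in 2 of the primitive endoderm genes tested, and 2 were higher at that threshold. For the trophectoderm genes tested it was above 0 in 2 and below 0 in 5, and 3 were lower at that threshold. Tfap2c made up the largest part of the trophectoderm sum. The part of these shifts in the results was not tested. In bulk samples, fewer cells of a type and less RNA per cell cannot be told apart.

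Start-site sequences are shown for 4 large subunit genes that changed (Mrpl3 rose, the others fell), since many mitochondrial ribosomal protein genes share short motifs there. Each window runs from 150 bases before to 30 bases after the annotated start, 5′ to 3′, from RefSeq on GRCm38.p6, and the capitals mark matches to CCGGAAG (the core that ETS factors such as GABPA bind) or GCATGCG (part of the NRF1 site) on either strand.
Mrpl3, chr9:105053118-105053297, plus strand: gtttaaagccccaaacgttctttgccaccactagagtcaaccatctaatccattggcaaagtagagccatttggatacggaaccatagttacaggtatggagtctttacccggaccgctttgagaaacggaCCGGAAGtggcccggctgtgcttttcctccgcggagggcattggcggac
Mrpl58, chr11:115403602-115403781, plus strand: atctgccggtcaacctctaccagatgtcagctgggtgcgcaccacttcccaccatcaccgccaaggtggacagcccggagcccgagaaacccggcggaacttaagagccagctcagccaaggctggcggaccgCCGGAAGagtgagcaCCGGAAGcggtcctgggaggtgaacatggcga
Mrpl22, chr11:58171514-58171693, plus strand: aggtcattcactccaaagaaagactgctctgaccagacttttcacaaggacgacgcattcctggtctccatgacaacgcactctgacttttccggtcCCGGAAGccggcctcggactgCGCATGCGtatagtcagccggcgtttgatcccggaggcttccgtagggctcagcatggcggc
Mrpl24, chr3:87919394-87919573, plus strand: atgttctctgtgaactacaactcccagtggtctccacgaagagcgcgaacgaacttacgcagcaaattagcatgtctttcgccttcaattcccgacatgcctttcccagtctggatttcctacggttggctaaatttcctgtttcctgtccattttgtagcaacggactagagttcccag

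The Mrpl3 window holds a single ETS match, the Mrpl58 window holds 2 and the Mrpl24 window none. In Mrpl22 the NRF1 letters read the same way on both strands, so that 1 site counts as a match on each, and an ETS match lies before it. RefSeq's promoter table, which holds 300 bases around each start, matched 69 of the 78 members with 75 promoters. The ETS letters occurred in 34.7% of these and in 8.9% of all 32851 promoters in the table. The NRF1 letters occurred in 10.7% against 3.6%, and AAGATGG, from the site of the factor YY1, in 17.3% against 6.3%. The E-box CACGTG, which MYC and USF factors bind, was found in 9.3% against 7.2%. Member promoters were also richer in G and C, with a median of 58.7% against 52.7%. Among the members that fell on Cnot1 knockdown, 8 of 20 promoters held the ETS letters, and among those not called 17 of 54 did. The YY1 letters were in 1 of 20 against 12 of 54 and the NRF1 letters in 1 of 20 against 7 of 54. The E-box was in 4 of 20 against 3 of 54. All are counts of promoters with no test, and promoters are not separate genes. Mrpl2 has overlapping windows that hold the same E-box, which was counted in each, and Mrpl48 has several starts among the 20. The E-box counts therefore do not compare separate genes. A match is a run of letters and not a shown binding site.

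The mitochondrial ribosomal protein mRNAs shifted little, and under TMM scaling more of them were lower than higher, which turned round with library totals. Of the 78 genes, 16 were lower and 2 higher in siCnot1 at an adjusted p under 0.05 (edgeR, quasi-likelihood test, adjusted over all 18144 genes tested by the Benjamini-Hochberg method), and 60 were not called. Over all genes tested 29.7% were called, 14.7% lower and 15.0% higher. For the members the shares were 23.1%, 20.5% and 2.56%, so in this fit the share called lower was above the background and the share called higher below it. The share called lower was below the background with library totals, with a length trend removed and with any library left out. The median log2 fold change of the members was -0.07, with 54 genes below 0 and 24 above, against 0.01 over all genes tested. No member changed 2-fold.

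The direction of so small a shift depended on how the libraries were scaled. With library totals in place of TMM, the median over all genes moved from 0.01 to 0.12, the median of the members became 0.03, and 4 members were called lower and 7 higher, which is 5.13% lower against 8.61% of all genes, and 8.97% higher where 3999 of all 18144 genes were higher. Relative to all genes the members stood at -0.08 under both scalings, but at -0.02 with a trend on gene length removed from each library. With that trend removed, 10 members were called lower and 5 higher, or 12.8% and 6.41% against 16.9% and 14.5%. Leaving out a library lowered the calls among all genes as well as among the members. Without siNT replicate 1 there were 2 members lower (2.56% against 3.89% of all genes), and without siNT replicate 2 there was 1 (1.28% against 4.25%). Without siCnot1 replicate 1 there were 6 (7.69% against 8.90%), and without siCnot1 replicate 2 there were 7 (8.97% against 10.8%), while 2 were higher each time. Mrpl24, Mrpl3 and Mrpl19 were called with each library left out, and the other 15 called members lost the call without at least 1 of them.

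At the rule the study used to call genes, an unadjusted p of 0.05 or less with a 2-fold change or more, none of the 78 members was called in either direction by edgeR, against 7.98% of all genes tested. In 36 members both siCnot1 libraries lay below both siNT libraries, and in 11 both lay above. The same held for 31.2% and 32.7% of all genes tested. The 95% interval of the log2 fold change lay within 1.5-fold of no change for 70 of the 78 members, and among the members not called no interval reached beyond 0.48 on the log2 scale. The standard error of a member's log2 fold change was 0.06 to 0.14, with a median of 0.09.

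**Figure D1:**
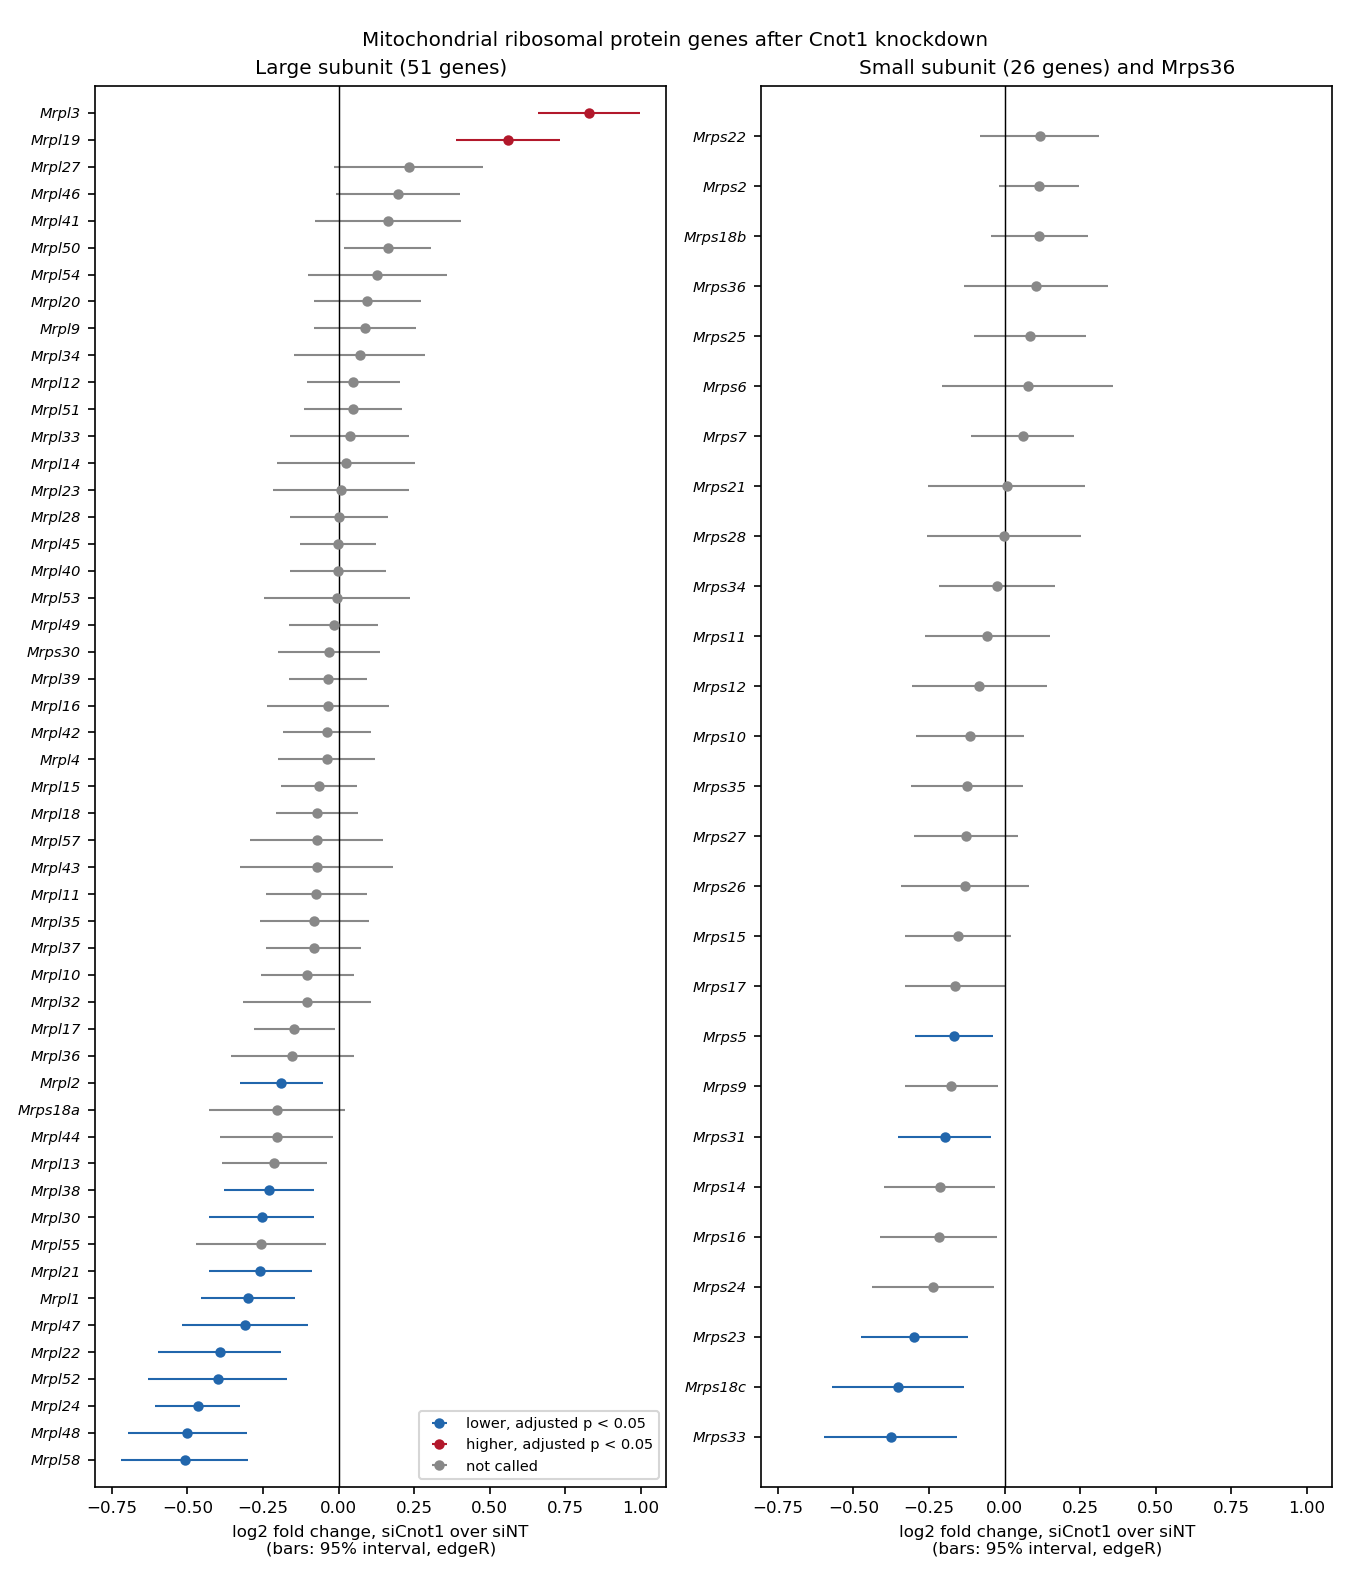
Log2 fold change of every member in siCnot1 over siNT (points) with its 95% interval (bars), computed from the edgeR test statistic. Members are sorted within the large subunit (left) and within the small subunit together with Mrps36 (right). Of the members, 16 were lower (blue) and 2 higher (red) at an adjusted p under 0.05 under TMM scaling, against 4 and 7 with library totals, and most intervals lie between -0.5 and 0.5.

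Both members that rose belong to the large subunit. Mrpl3 encodes a protein with a bacterial homolog that reaches towards the peptidyl transferase centre, where peptide bonds form, and mutations in its human counterpart cause a mitochondrial cardiomyopathy. Its level was 46.1 and 39.95 normalized CPM in the siNT libraries and 76.6 and 76.1 in the siCnot1 libraries. Both siCnot1 libraries were far above both siNT libraries. The log2 fold change was 0.83 (SE 0.08, adjusted p = 7.75e-08, edgeR), which is 1.77-fold and the largest change of any member in either direction. Mrpl19, whose bacterial homolog sits at the interface between the subunits, was at 38.5 and 39.8 normalized CPM in siNT and at 56.7 and 58.9 in siCnot1. Its log2 fold change was 0.56 (SE 0.08, adjusted p = 1.76e-05, edgeR). Both kept their call under each of the 9 other scalings, filters and tests tried and with each library left out in turn.

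Mrpl3 and Mrpl19 are also among the 15 members listed with more than 3000 exon bases. The count table gives 8707 exon bases for Mrpl3 and 5016 for Mrpl19. The median was 1580 over the members and 3361 over all genes tested, and Mrpl3 is the longest member by this listing. By the length of a GENCODE M21 reference transcript it is not the longest, with 3972 bases for Mrpl3, 5000 for Mrpl19 and 7300 for Mrpl17. Of the other 13 long members, Mrpl48 and Mrpl1 fell and 11 were not called. The shares of all genes tested that were called lower and higher were 14.7% and 15.0%. Mrpl3 shares no exon bases with another gene in the annotation. Mrpl19 shares 1145 of its exon bases with Gcfc2 on the opposite strand. The log2 fold change of Gcfc2 was 0.07 (adjusted p = 0.703, edgeR). Whether the counting used strand is not stated, and so reads in the shared stretch could belong to either gene.

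The clearest falls were in 3 other large subunit genes. Mrpl58 encodes a peptidyl-tRNA hydrolase, also known as ICT1, that is built into the large subunit and can free stalled mitoribosomes. It was at 39.1 and 36.9 normalized CPM in siNT and at 24.4 and 29.1 in siCnot1, 70.3% of the control level, with a log2 fold change of -0.51 (SE 0.10, adjusted p = 0.000487, edgeR). Mrpl48, a protein of the central protuberance, was at 36.1 and 36.9 normalized CPM in siNT and at 25.1 and 26.5 in siCnot1, and its log2 fold change was -0.50 (SE 0.10, adjusted p = 0.000306, edgeR). Mrpl24, which has a bacterial homolog near the exit of the peptide tunnel, was at 98.9 and 93.6 normalized CPM in siNT and at 68.7 and 70.7 in siCnot1. Its log2 fold change was -0.47 (SE 0.07, adjusted p = 1.47e-05, edgeR). The groups did not overlap for any of these genes.

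These falls also stayed called under the 9 other settings. With a library left out Mrpl24 was called each time, Mrpl48 lost its call without siNT replicate 2 (adjusted p = 0.0509, edgeR) and Mrpl58 lost it without siNT replicate 1 (adjusted p = 0.0992, edgeR) or siNT replicate 2 (adjusted p = 0.0706, edgeR). Mrpl48 shares 474 of 5203 exon bases with Rab6a and Mrpl24 shares 372 of 2405 with Rrnad1, each on the opposite strand. Neither neighbour was called, with log2 fold changes of -0.10 and 0.12. Mrpl58 shares no exon bases with another gene. A processed pseudogene of Mrpl48 had its own row with 197 to 279 counts, and adding the counts of such rows to their parent genes left 16 members lower and 2 higher.

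Mrpl22, whose protein lines the peptide exit tunnel, was at 39.5 and 36.3 normalized CPM in siNT and at 30.6 and 27.1 in siCnot1. Its log2 fold change was -0.39 (SE 0.10, adjusted p = 0.00348, edgeR), and the call was lost with no filter on low counts (adjusted p = 0.0556, edgeR). Mrpl2, whose bacterial homolog helps to form the peptidyl transferase centre, was at 98.0 and 92.6 normalized CPM in siNT and at 82.4 and 84.6 in siCnot1. Its fall of 0.19 on the log2 scale was small next to that of Mrpl22 and only just passed the test (adjusted p = 0.0329, edgeR). The other large subunit genes that fell were Mrpl52, Mrpl47, Mrpl1, Mrpl21, Mrpl30 and Mrpl38, with log2 fold changes from -0.40 to -0.23.

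The large subunit had 51 genes, of which 11 were lower (21.6%) and 2 higher (3.92%), against 14.7% and 15.0% of all genes tested. Its median log2 fold change was -0.06. Here genes were placed by where the protein sits, so that Mrps18a and Mrps30, which carry the small subunit letter but belong to the large subunit, were counted there. Placed by the letter instead, 49 genes counted as large and 29 as small, with the same numbers of genes called and medians of -0.06 and -0.12.

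Several large subunit genes with well-known roles did not pass the test. Mrpl12, which forms the flexible stalk that recruits translation factors, was at 74.4 and 76.7 normalized CPM in siNT and at 72.8 and 83.6 in siCnot1, so the groups overlapped. Mrpl10, the base of that stalk, had a log2 fold change of -0.10 (95% interval -0.26 to 0.05). Mrpl45 helps to hold the mitoribosome at the inner membrane and was the large subunit gene nearest to no change, with 120 and 122 normalized CPM in siNT and 121 and 122 in siCnot1. Its 95% interval was -0.13 to 0.13. Mrpl44, which has a fold like that of RNase III, was at 43.9 and 44.4 normalized CPM in siNT and at 36.1 and 40.5 in siCnot1. Its groups did not overlap, but its log2 fold change of -0.21 did not pass the test (adjusted p = 0.0907, edgeR).

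In the small subunit, which binds the mRNA and decodes it, 5 of 26 genes (19.2%) were lower and none was higher at an adjusted p under 0.05 in edgeR. Over all genes tested 14.7% were called lower and 15.0% higher. The median log2 fold change of the small subunit was -0.13. In 15 of the 26 both siCnot1 libraries lay below both siNT libraries, and in 3 both lay above, against 31.2% and 32.7% of all genes tested. Mrps33 had the largest fall of the small subunit. It was at 23.4 and 24.95 normalized CPM in siNT and at 18.2 and 19.0 in siCnot1, with a log2 fold change of -0.38 (SE 0.11, adjusted p = 0.00887, edgeR). Mrps23 was at 57.6 and 54.6 normalized CPM in siNT and at 42.8 and 48.4 in siCnot1, a log2 fold change of -0.30 (SE 0.09, adjusted p = 0.00997, edgeR). Mrps33 and Mrps23 have no bacterial homolog.

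Mrps5, a protein at the mRNA entrance, was at 156 and 143 normalized CPM in siNT and at 133 and 134 in siCnot1. It and Mrps31 had the smallest margins of the called members, with adjusted p = 0.0456 and 0.0477 (edgeR), and both lost the call under 6 of the 9 other settings. Mrps12, at the decoding centre, had a log2 fold change of -0.08 (95% interval -0.31 to 0.14). Mrps28 was the small subunit gene nearest to no change, at -0.0022 (95% interval -0.26 to 0.25), with 20.6 and 16.1 normalized CPM in siNT and 17.7 and 18.9 in siCnot1. Under library totals the small subunit had 0 genes lower and 2 higher in edgeR, and its median was -0.02.

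The 3 Mrps18 paralogs, members of a single family, were read side by side. They are related to the same bacterial protein, and Mrps18b and Mrps18c sit in the small subunit while Mrps18a sits in the large subunit. Mrps18c was at 44.3 and 36.4 normalized CPM in siNT and at 29.2 and 34.1 in siCnot1, and its log2 fold change of -0.35 passed the test (SE 0.11, adjusted p = 0.0135, edgeR). Mrps18a was at 23.3 and 20.7 normalized CPM in siNT and at 19.2 and 19.0 in siCnot1, so its groups did not overlap, but its log2 fold change of -0.20 was not called (adjusted p = 0.173, edgeR). Mrps18b was at 76.0 and 64.7 normalized CPM in siNT and at 75.8 and 76.5 in siCnot1, a log2 fold change of 0.11 (adjusted p = 0.291, edgeR). The differences between the paralogs were not tested. Mrps18c lost its call under 3 of the 9 other settings. With a library left out its log2 fold change was -0.487 to -0.202.

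Mrps30 and Mrps36 carry small subunit names without being small subunit proteins. Mrps30, a large subunit protein, was at 64.9 and 58.8 normalized CPM in siNT and at 57.0 and 64.1 in siCnot1. Mrps36 is now known as a component of the 2-oxoglutarate dehydrogenase complex and was counted in neither subunit. Its log2 fold change was 0.10 (95% interval -0.13 to 0.34). Neither gene was called.

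Members were also grouped by descent. Of the 46 genes with a bacterial homolog, 9 were lower (19.6%) and 2 higher (4.35%), with a median log2 fold change of -0.08. The other 31 genes have proteins with no counterpart at the same place in the bacterial ribosome (Mrps18a among them). Of these, 7 were lower (22.6%) and none was higher in edgeR, with a median of -0.04. Over all genes tested 14.7% were called lower and 15.0% higher. Both groups held members that fell, and the difference between the groups was not tested.

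**Figure D2:**
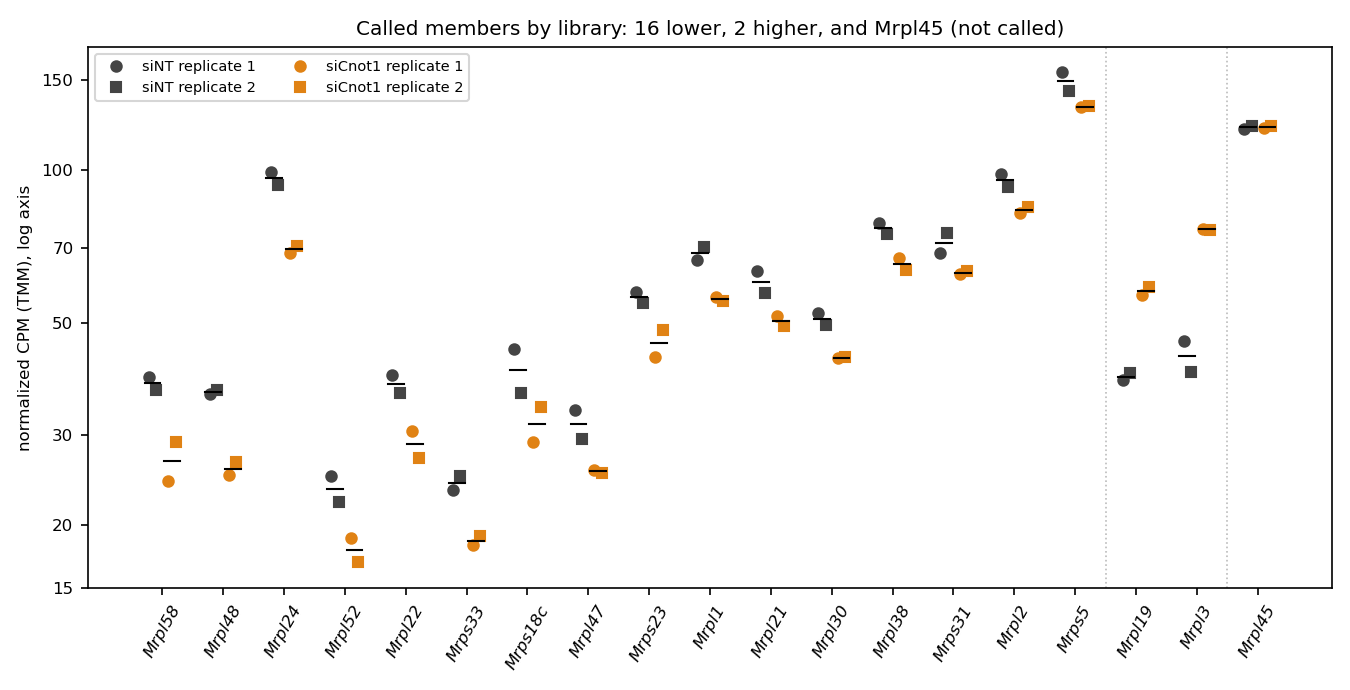
Normalized CPM (log axis) in each of the 4 libraries for the 16 members that fell, the 2 that rose and Mrpl45, the member nearest to no change; bars mark group means, circles replicate 1 and squares replicate 2. In each of the 18 called members the siCnot1 libraries lie entirely to 1 side of the siNT libraries, from 70.3% of the siNT mean in Mrpl58 to 1.77-fold in Mrpl3.

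Levels of the members were compared per length, as FPKM, here the normalized CPM divided by the listed exon length in kilobases. In siNT the median over the members was 29.5 FPKM against 3.36 over all genes tested, and 77 of the 78 members were above that median. Mrpl42 was the highest at 115 and 128 FPKM in the siNT libraries. Mrps5 was at 109 and 99.7 FPKM, Mrpl2 at 87.5 and 82.7 FPKM and Mrps18c at 88.3 and 72.5 FPKM. The ranges of Mrpl2 and Mrps18c overlapped, so their order is not fixed by these libraries. The lowest in the large subunit were Mrpl14 at 2.73 and 2.44 FPKM and Mrpl3 at 5.29 and 4.59 FPKM, and the lowest in the small subunit were Mrps25 at 7.15 and 6.55 FPKM and Mrps10 at 9.24 and 9.66 FPKM.

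The low end of this order rests on the annotation. Mrpl14, a protein of the subunit interface, is listed with 7525 exon bases, and with the length of a GENCODE M21 reference transcript its siNT level was 30.1 FPKM in place of 2.58. Mrps10 went in the same way from 9.45 to 47.1 FPKM and Mrpl3 from 4.94 to 10.8 FPKM. Mrps5 went the other way, from 104 to 33.4 FPKM. Mrps25 shares 3547 of its 6076 exon bases with Nr2c2 on the opposite strand, so its level could include reads of that gene. Of these, Mrpl14, Mrps10 and Mrps25 were not called, with log2 fold changes of 0.03, -0.11 and 0.08.

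In all, 22 members shared exon bases with another gene, 19 of them on the opposite strand, and 12 shared over 5% of their exon bases. Among the called members 3 did so, namely Mrpl19, Mrpl24 and Mrpl48.

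The members are short genes with compact mRNAs. Reference transcripts of GENCODE M21 matched all 78 members and 14038 of the genes tested. Members had a median coding length of 585 bases against 1416 over all genes matched, a median 3′ untranslated region of 322.5 bases against 769, and 5 exons against 9. Their GC content was 50.01% against 50.98%. Median expression was 43.0 normalized CPM against 11.4 over all genes tested.

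Across the members, log2 fold change followed neither length nor level closely. Spearman's rho with listed exon length was 0.04 over the 78 members (Pearson's r = 0.24), and it was -0.03 over 76 members without Mrpl3 and Mrpl19. Over all 18144 genes tested rho was 0.18. With the log2 level rho was -0.12 over the members and -0.28 over all genes tested, and with the 3′ untranslated region it was 0.00 over the members. These are descriptions across genes that share the same 4 libraries, and genes are not independent replicates.

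**Figure D3:**
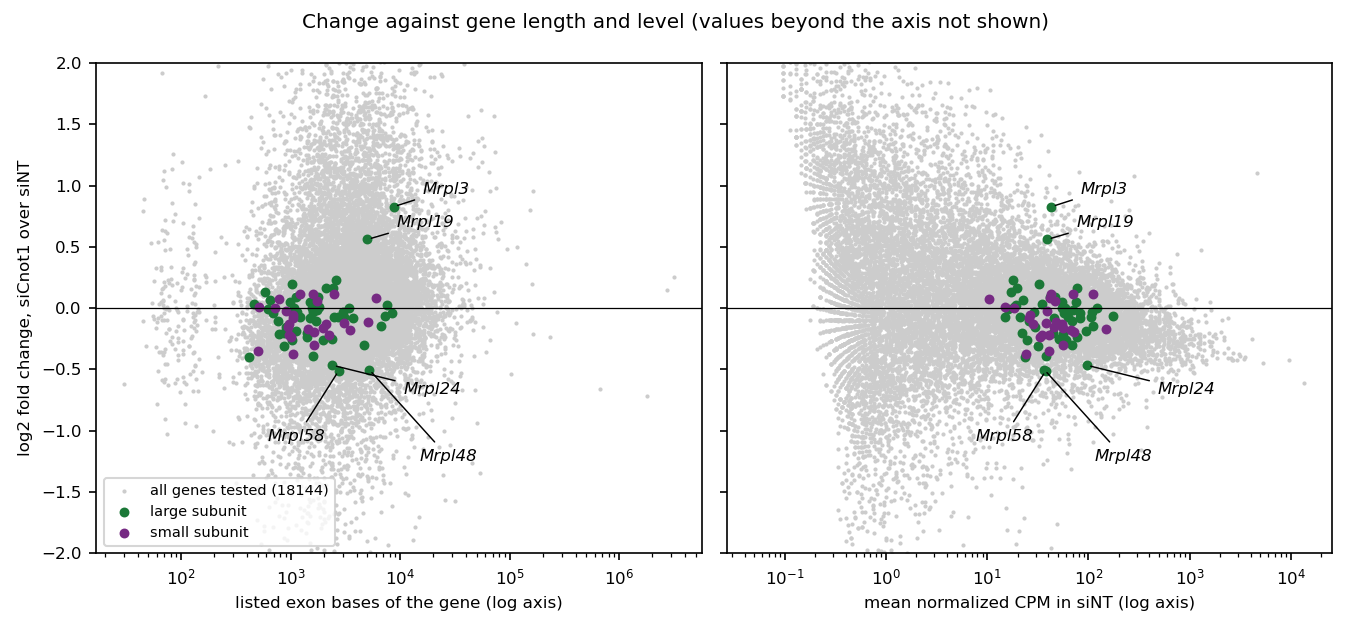
Log2 fold change (siCnot1 over siNT) against listed exon bases (left) and mean normalized CPM in siNT (right), both on log axes, for all 18144 genes tested (grey), 51 large subunit genes (green) and 26 small subunit genes (purple); genes beyond 2 on the log2 scale are not shown. The members lie in a narrow band around 0, where Mrpl3 and Mrpl19 stand above it at long listed exon lengths and an ordinary level.

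Members lie on 17 chromosomes, with 11 on chromosome 11 and 8 on chromosome 17. Many mouse housekeeping genes start head to head with a neighbour, and 29 members had a gene on the opposite strand that started within 1000 bases. Of 27 such neighbours that were tested, 3 were called. They were Fau beside Mrpl49, with a log2 fold change of -0.47 against -0.02 for the member, Psma2 beside Mrpl32 with -0.17 against -0.10, and Ncapd2 beside Mrpl51 with -0.22 against 0.05. In 7 of the 27 pairs the member was called, and in 0 pairs were both genes called, where 29.7% of all genes tested were called. Mrpl46 and Mrps11 start 42 bases apart, and the 27 pairs count them once from each side. Their log2 fold changes were 0.20 and -0.06, and neither was called.

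The members took a near-constant share of all counts. They held 0.388% and 0.379% of counts in siNT and 0.389% and 0.398% in siCnot1, and the exact (Clopper-Pearson) 95% interval of the highest library was 0.396 to 0.400%, which covers counting error only. After TMM scaling the summed level was 4029.5 and 3940.9 normalized CPM in siNT and 3732.9 and 3859.8 in siCnot1, so the groups were ordered the other way. The TMM factors were 0.96 in both siNT libraries and 1.04 and 1.03 in the siCnot1 libraries.

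Other parts of the mitochondrial translation system were read from lists, each with its own count and median, and were not tested against the members. A further 5 mitoribosomal proteins do not carry an Mrp symbol. Ptcd3 fell from 191 and 199 normalized CPM to 170 and 173 (log2 fold change -0.18, adjusted p = 0.0186, edgeR), and Dap3, a GTP-binding small subunit protein, fell from 131 and 125 to 116 and 109 normalized CPM (log2 fold change -0.19, adjusted p = 0.0281, edgeR). Gadd45gip1, Aurkaip1 and Chchd1 had log2 fold changes of -0.19, 0.05 and 0.12 and were not called. The median of the 5 was -0.18.

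Of 17 mitochondrial translation factors and their partners tested, 2 were lower (11.8%) and 1 was higher (5.88%), against 14.7% and 15.0% of all genes tested. Their median log2 fold change was -0.12. Oxa1l, which inserts new proteins into the inner membrane, fell by 0.22 on the log2 scale and Lrpprc, which stabilizes mitochondrial mRNAs, by 0.18. Guf1, a GTPase of mitochondrial translation, rose with a log2 fold change of 0.28.

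Assembly of the mitoribosome was represented by 24 genes, with a median log2 fold change of 0.02. Of these, 2 were lower (8.33%) and 1 was higher (4.17%), against 14.7% and 15.0% of all genes tested. Tfb1m, which methylates the small ribosomal RNA, was at 27.0 and 25.7 normalized CPM in siNT and at 18.3 and 20.6 in siCnot1, a log2 fold change of -0.44 (adjusted p = 0.00308, edgeR). Mettl17 fell as well, with a log2 fold change of -0.31, and Nsun4, a methyltransferase that works with MTERF4 on the mitoribosome, rose with 0.34.

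In mitochondrial transcription 2 of 8 genes were lower and none was higher in edgeR, against 14.7% and 15.0% of all genes tested. The median log2 fold change of the 8 genes was -0.14. The list includes Mrpl12, which is also a member. Tfb2m, the initiation factor of the mitochondrial RNA polymerase, was at 32.3 and 32.4 normalized CPM in siNT and at 16.2 and 16.1 in siCnot1. Its log2 fold change of -1.001 (SE 0.10, adjusted p = 1.29e-07, edgeR) was larger than that of any member. Tefm, the elongation factor, fell with a log2 fold change of -0.45 (adjusted p = 0.00189, edgeR). Polrmt, the polymerase, and Tfam, which packages mitochondrial DNA, were not called, at 0.07 and -0.11.

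Among 11 tested regulators of mitochondrial gene expression, 2 were lower (18.2%) and 1 was higher (9.09%), against 14.7% and 15.0% of all genes tested. Their median log2 fold change was -0.02. Mycn fell by 0.57 on the log2 scale and Esrrb by 0.19, and Esrra rose with a log2 fold change of 0.57. Of the factors whose motifs were searched above, Nrf1, Gabpa and Yy1 had log2 fold changes of -0.02, -0.12 and 0.01 and were not called. For the MYC factors of the E-box, Myc was not called, with a log2 fold change of 0.06, while Mycn was called lower.

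The ribosomal RNAs of the mitoribosome are listed as mt-Rnr1 and mt-Rnr2. mt-Rnr1 was at 108 and 127 normalized CPM in siNT and at 216 and 178 in siCnot1, with a log2 fold change of 0.75 (SE 0.08, adjusted p = 2.1e-07, edgeR). mt-Rnr2 was at 286 and 421 normalized CPM in siNT and at 385 and 372 in siCnot1, and was not called (log2 fold change 0.10, adjusted p = 0.49, edgeR). The libraries were made from poly(A)+ RNA, so these counts need not follow the amount of ribosomal RNA in the cells.

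The genes of the cytosolic ribosome and of the respiratory chain give the scale of these changes. Of 83 cytosolic ribosomal protein genes 77 (92.8%) were lower and none was higher in edgeR, with a median log2 fold change of -0.37. The mitochondrial ribosomal protein genes had 16 lower (20.5%) and 2 higher (2.56%) of 78, and a median of -0.07. The nuclear-encoded genes of the respiratory chain had 15 lower (19.5%) and 2 higher (2.60%) of 77, and a median of -0.10. They stood nearer to the members in both respects. Over all genes tested 14.7% were called lower and 15.0% higher. These are counts and medians from the same 4 libraries, and the differences between the lists were not tested.

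**Figure D4:**
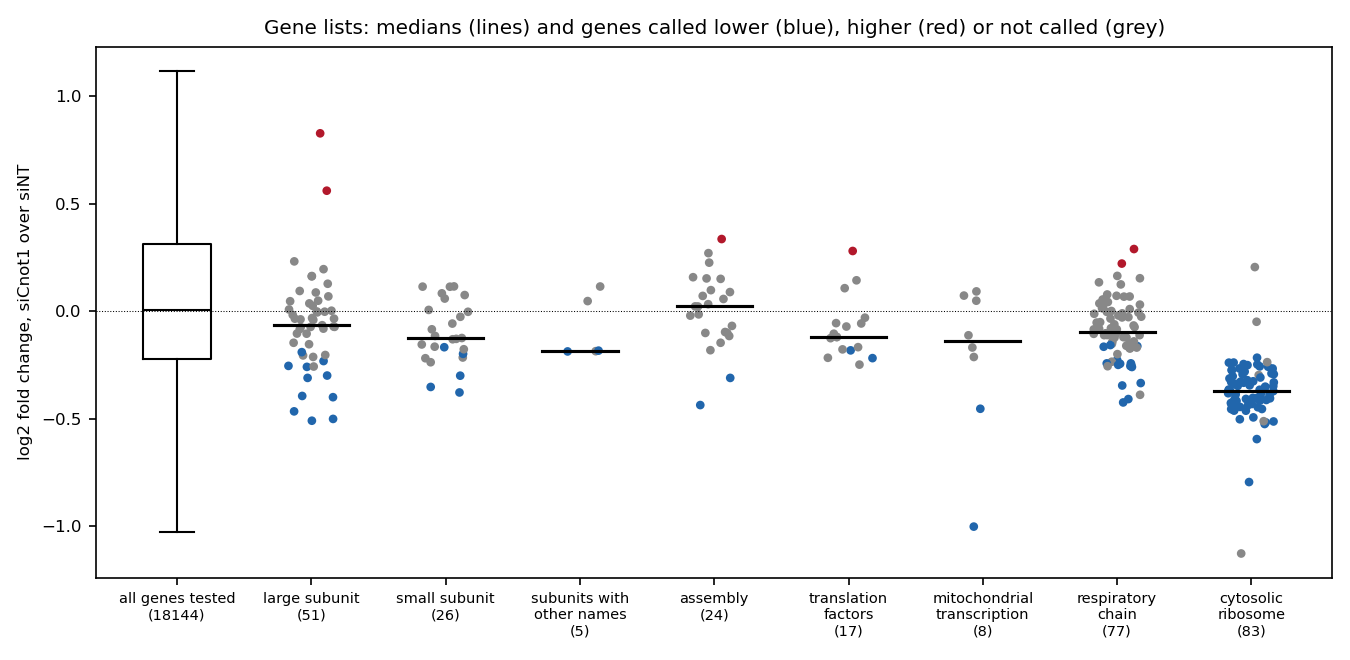
Log2 fold change (siCnot1 over siNT) of single genes (points; blue lower, red higher, grey not called at an adjusted p under 0.05) with the median of each list (lines), beside a box plot of all genes tested (box: quartiles; whiskers: furthest value within 1.5 times the interquartile range), with the number of genes under each name. The large and small subunit lie around -0.06 and -0.13 and the cytosolic ribosome around -0.37 under TMM scaling; with library totals the members' median turns to 0.03.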

How the data were processed

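The submitters' processing notes name fastp 0.19.4, HISAT2 2.2.1 and the mm10 build, and the counting program is not given in the sources used here. The authors deposited raw counts per gene for each library of dUTP-stranded poly(A)+ RNA, with no normalization and no pooling, and the listed exon length of each gene. Gene positions in the table differ from GRCm38 for all but 1 of the 78 members, so positions are printed only for RefSeq GRCm38.p6 promoters.

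The deposited counts were scaled by TMM and tested with edgeR 4.0.16 (filterByExpr with a minimum count of 10, quasi-likelihood test, condition only, Benjamini-Hochberg over 18144 genes) in R 4.3.3. At this depth 3 counts equal 0.0921 to 0.0934 CPM. FPKM was computed from TMM-scaled CPM and listed exon length. Coding and UTR lengths came from GENCODE M21, joined by symbol. The fit was tried on simulated counts of 18144 genes with a common dispersion, of which 200 changed 2-fold. It recovered 166 of these with 0 false calls. Smaller changes, such as those of the members, were not simulated.

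The members and lists were chosen with earlier results of these data known. Members named were, in each subunit, the 4 with the smallest adjusted p in each direction that also kept the same sign in both numbered replicate pairs, the 2 highest and 2 lowest in level per length, the member nearest to 0, and 11 fixed names. Of other lists, all 5 subunits with other symbols and up to 3 genes by adjusted p were named. Mrps31, Mrpl17, the other called genes, the neighbours and Polrmt, Tfam, Nrf1, Gabpa, Yy1 and Myc were named after their values were seen. Of 18 translation factors 17 were tested and of 12 regulators 11, the rest being unlisted or too low.

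The scaling was replaced by that of DESeq2, by upper quartiles or by library totals. The filter was dropped or set to 1 CPM or more in 2 libraries. The test was replaced by DESeq2 (version 1.42.0) or by voom in limma 3.58.1. The replicate number was added as a block, a trend on length was removed by lowess (span 0.3), and each library was left out in turn. Protein sequences were not used here.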

Additional observations from a re-analysis of the deposited data

How the results depend on the processing

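Mrpl58, Mrpl48, Mrpl24, Mrpl3 and Mrpl19 stayed called under all 9 other scalings, filters and tests, and the other 13 called members lost the call under at least 1. With library totals, 4 members were lower and 7 higher (large subunit 4 and 5, small subunit 0 and 2), and the medians were 0.0346 for the members, 0.0421 for the large subunit, -0.0192 for the small subunit, 0.0247 for genes with a bacterial homolog and 0.0697 for those without. In that setting 0 subunits with other symbols and 7 assembly genes were called, with medians of -0.0758 and 0.13, and the medians were -0.0111 for translation factors, -0.0332 for transcription and 0.0866 for regulators. With no filter on low counts 4 members were lower (large 4, small 0), while 0 subunits with other symbols, 0 translation factors and 1 assembly gene were called and the regulators' median was -0.0508. With the length trend removed, 10 members were lower and 5 higher (5 large subunit genes higher, 2 small subunit genes lower), with medians of -0.0296 for the members, -0.0286 for the large subunit, -0.0615 for the small subunit, -0.0109 for genes with no bacterial homolog and -0.14 for subunits with other symbols. The regulators then had 5 called and a median of -0.13. With upper-quartile scaling 3 small subunit genes were lower and the assembly median was 0.042, and with DESeq2's own test 3 were lower. At the 2-fold rule 0 members were lower and 0 higher. Without mitochondrially encoded genes the members held 0.393% and 0.385% of counts in siNT and 0.398% and 0.405% in siCnot1. The cause was not tested.

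Libraries with the same number barely deviated together (correlation 0.0109 over 18144 genes). Genes with low counts entered this value too, so it does not settle whether the libraries were handled in pairs. With the number as a replicate block, 13 members were lower and 2 higher, and in the small subunit 3 were lower.

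Leaving out a library leaves 1 in its group, and edgeR then assumes that it varies like the others. Between 1 and 7 members were then lower, with 2 lower without siNT replicate 1, 1 without siNT replicate 2, 6 without siCnot1 replicate 1 and 7 without siCnot1 replicate 2, and 2 were higher each time. The median of all members was -0.0959 to -0.051. The large subunit had 1 to 6 lower and the small subunit 0 to 3, with a small subunit median of -0.166 to -0.0755. Medians were -0.124 to -0.055 for genes with a bacterial homolog and -0.0616 to -0.011 for those without. Subunits with other symbols had 0 called and a median of -0.156 to -0.10. Translation factors had 0 to 1 called and a median of -0.15 to -0.0707, assembly genes 0 to 2 and 0.00645 to 0.0313, transcription genes 1 to 2 and -0.231 to -0.0338, and regulators 1 to 3 and -0.0544 to 0.00933. The 4 libraries and 2 replicates per group limit what small changes can be called.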
